A study of Mus musculus with 4 samples.

Results

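The genes described are 8 of cholesterol synthesis, namely the transcription factor gene Srebf2 and 7 of its known targets: Hmgcs1, Idi1, Fdft1, Sqle, Lss, Dhcr7 and Insig1. They were taken by symbol from the 49997 genes of each raw count table, and all 8 were found and passed the filter on low counts. They were measured in 4 RNA libraries of a wild-type mouse line, iMOP, which are immortalized multipotent progenitors of the inner ear. In 2 libraries the cells were proliferating, kept in DMEM/F12 with B27 supplement and basic FGF at 20 ng/ml. In the other 2 the cells were neurons made from the same line, kept in Neurobasal medium with N21 supplement and 1 µM K03861, which inhibits the kinase CDK2 of the cell cycle. Both groups come from 1 cell line, and the base medium, supplement, growth factor and inhibitor differ together between them, so these cannot be told apart. In each group 1 library is called replicate 1 and the other replicate 2, and the titles place both replicate 2 libraries in set 2 without saying what a set is.

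Cells make cholesterol from acetyl-CoA through mevalonate, farnesyl units, squalene and lanosterol. The genes of the enzymes are switched on together by SREBP-2, the product of Srebf2, a factor held in the endoplasmic reticulum membrane. When sterols are scarce, SCAP carries it to the Golgi, where proteases free its active part. When sterols are plentiful, INSIG proteins hold SCAP back, and INSIG1 is itself a product of an SREBP target gene, which closes a feedback loop. The brain makes most of its cholesterol itself. Active SREBP-2 binds sterol regulatory elements and works with the factors NF-Y, which binds CCAAT boxes, and SP1, which binds GC boxes.

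The stretches before the start sites of 4 of the genes are shown to let these letters be seen. They are from the RefSeq promoter table of GRCm38.p6, the build called mm10 in the submitters' processing notes, and were cut where an annotated GENCODE M21 exon begins. Capitals mark TCACNCCA, which forms most of a sterol regulatory element, and the CCAAT and GGGCGG boxes on either strand, the latter 2 being ATTGG and CCGCCC when on the other strand. Hmgcs1 and Srebf2 are shown for their TCACNCCA match, and Insig1 and Lss for their CCAAT and GC boxes without it.
Hmgcs1, chr13:119690101-119690350, plus strand: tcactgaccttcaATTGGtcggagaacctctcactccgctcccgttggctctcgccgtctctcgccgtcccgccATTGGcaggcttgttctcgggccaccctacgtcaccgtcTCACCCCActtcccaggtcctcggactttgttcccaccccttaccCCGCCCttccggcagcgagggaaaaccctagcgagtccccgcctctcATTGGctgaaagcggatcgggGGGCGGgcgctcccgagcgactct
Srebf2, chr15:82147019-82147180, plus strand: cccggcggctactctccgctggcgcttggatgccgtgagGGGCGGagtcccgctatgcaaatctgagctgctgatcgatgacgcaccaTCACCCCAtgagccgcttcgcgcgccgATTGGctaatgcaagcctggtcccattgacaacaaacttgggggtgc
Insig1, chr5:28071162-28071362, plus strand: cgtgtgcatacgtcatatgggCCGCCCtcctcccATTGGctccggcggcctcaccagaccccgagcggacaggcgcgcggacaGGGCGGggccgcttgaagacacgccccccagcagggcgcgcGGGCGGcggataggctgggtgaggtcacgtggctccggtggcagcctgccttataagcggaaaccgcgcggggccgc
Lss, chr10:76531355-76531587, plus strand: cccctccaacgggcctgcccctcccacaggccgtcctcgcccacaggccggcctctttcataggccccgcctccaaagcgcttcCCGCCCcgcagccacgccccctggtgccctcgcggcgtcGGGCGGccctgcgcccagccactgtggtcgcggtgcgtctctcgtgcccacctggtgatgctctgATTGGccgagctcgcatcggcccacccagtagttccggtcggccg

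Of the 8 genes, 6 have an entry in that table, with 8 windows of 250 bases before to 50 after a start, since Dhcr7 has 3. The longer motif TCACNCCAC, which contains TCACNCCA, was found in 1 gene, Hmgcs1, 137 bases before the start, and in 1.24% of all 32851 windows. TCACNCCA was found in Hmgcs1 and in Srebf2, 162 bases before its start, and in 4.36% of all windows. A CCAAT box was found in 6 of the 8 windows, against 37.4% of all windows, and a GGGCGG box in 7 of the 8, against 35.7%. Each of the 6 genes had both boxes in at least 1 window. In Idi1 both boxes lie near the start, with CCAAT 45 and 14 bases before it on the other strand. In Dhcr7 the CCAAT boxes were in the window of the most downstream start only. A match is a match of letters, and binding was not measured.

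The libraries held 7446361 to 14484011 counts, of which the 18S ribosomal RNA row took 53.3% and 59.4% in the replicate 1 libraries and 75.0% and 76.1% in the replicate 2 libraries. Levels are therefore given as CPM, the counts scaled to a common library total, with TMM factors, which scale each library by the bulk of its genes. Proliferating replicate 2 stood apart, with the lowest summed level of proliferation markers and the highest levels of all 8 genes. Results are given with and without that library where they rest on it. Of the proliferation markers, Mcm2 was not lowest there, at 30.5 CPM against 26.4 CPM in proliferating replicate 1. The summed level of 6 proliferation markers was 318 and 79.5 CPM in the proliferating replicates 1 and 2, and 399 and 233.7 CPM in the neuron replicates, so it did not separate the groups. The summed level of 10 neuron markers was 160.5 and 347.6 CPM in proliferating cells and 201.8 and 363.3 CPM in neurons, higher in replicate 2 of each group, and 9 of the 10 were detected above the filter. Of 8 otic progenitor markers, Pax2 and Pax8 were at 0 counts in all 4 libraries, and 3 passed the filter. The 8 FGF response markers summed to 85.4 and 274.5 CPM in proliferating cells and to 33.6 and 5.91 CPM in neurons.

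Srebf2 was at 35.4 CPM in proliferating replicate 1 and 116.1 CPM in proliferating replicate 2, and at 45.2 and 72.5 CPM in neuron replicates 1 and 2, from 431, 858, 537 and 711 counts. The replicate 2 libraries were the higher ones in both groups, and the neuron libraries lay between the proliferating ones. Insig1, whose product retains SCAP, was at 6.57 and 28.2 CPM in proliferating cells and at 6.65 and 13.6 CPM in neurons, from 80, 208, 79 and 133 counts. Its replicate 1 libraries were almost level and its replicate 2 libraries both stood above them.

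Hmgcs1 encodes the synthase that makes HMG-CoA, the precursor of mevalonate. It was at 49.3 and 92.9 CPM in proliferating cells and at 37.5 and 58.3 CPM in neurons, from 600, 686, 446 and 572 counts. It was the 1 gene of the 8 that was lower in neurons in both replicates, yet neuron replicate 2 lay above proliferating replicate 1. Idi1, the isomerase that makes the 2 isoprene units interchangeable, had few counts, 31 and 29 in proliferating cells and 35 and 26 in neurons. It was at 2.55 and 3.93 CPM and at 2.94 and 2.65 CPM, and these were the closest values of the 8 genes, with the highest library 1.54 times the lowest.

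Fdft1, the squalene synthase that commits farnesyl units to sterols, was at 9.20 and 47.2 CPM in proliferating cells and at 10.9 and 21.8 CPM in neurons, from 112, 349, 130 and 214 counts. Sqle, the epoxidase that is a rate-limiting oxygen-using step, was at 22.2 and 76.5 CPM in proliferating cells and at 24.1 and 47.5 CPM in neurons, from 270, 565, 287 and 466 counts. Both genes were lowest in proliferating replicate 1 and highest in proliferating replicate 2. Lss, the cyclase that folds the squalene epoxide into lanosterol, was at 6.49 and 49.1 CPM in proliferating cells and at 7.15 and 20.4 CPM in neurons, from 79, 363, 85 and 200 counts. Lss had the widest range of the 8 genes, with the highest library 7.57 times the lowest. Dhcr7, the reductase of the last step to cholesterol, was at 8.13 and 32.8 CPM in proliferating cells and at 9.09 and 17.9 CPM in neurons, from 99, 242, 108 and 176 counts.

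**Figure D1:**
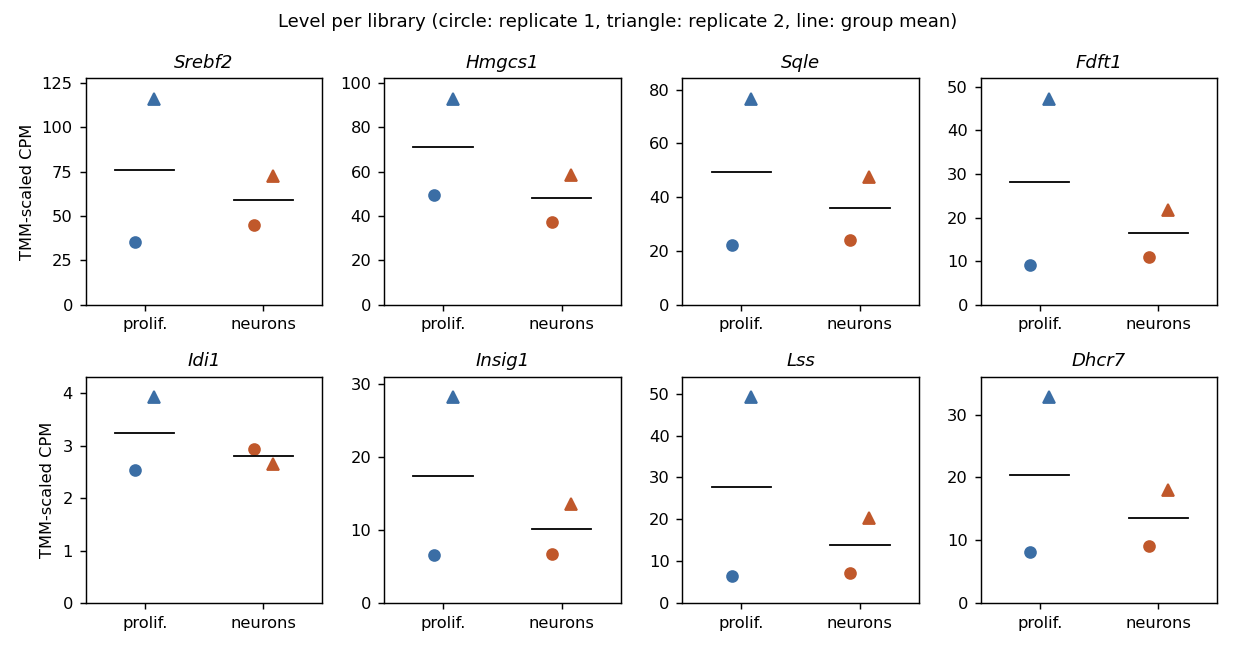
TMM-scaled CPM (y axis, from 0) of each of the 8 genes in the 4 libraries, with proliferating cells in blue, neurons in orange, circles for replicate 1, triangles for replicate 2 and a line at each group mean (n = 2). Proliferating replicate 2 is the highest library in all 8 panels, and the neuron libraries fall within or overlap the span of the proliferating ones.

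All 8 genes were highest in proliferating replicate 2, against 34% of the 12783 tested genes. Neuron replicate 2 was second in 7 of them, Idi1 being the exception. By TMM-scaled CPM no gene of the 8 had both neuron libraries below, or both above, both proliferating libraries. Of all tested genes 14.5% and 12.9% did. On the authors' RPKM scale, whose denominator includes the 18S row, 6 of the 8 genes were highest in proliferating replicate 2. Hmgcs1 (7.64 RPKM) and Idi1 (1.45 RPKM) were highest in proliferating replicate 1. By RPKM Srebf2, Hmgcs1, Sqle, Fdft1, Insig1 and Dhcr7 had both neuron libraries below both proliferating libraries, and Idi1 and Lss did not. Hmgcs1 was at 7.637 and 6.265 RPKM in proliferating cells and at 4.462 and 3.743 RPKM in neurons. The share of all tested genes with that order by RPKM was not computed. Scaled by library size alone, the median of all genes in the replicate 1 pair was -0.38.

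Between genes, levels were compared per length, as mean CPM per kilobase of the longest coding GENCODE transcript over the 4 libraries. Hmgcs1 was highest at 17.2, followed by Sqle at 15.4 and Srebf2 at 13.3 CPM per kilobase. Their ranges over the libraries overlapped (10.8 to 26.8, 8.04 to 27.7 and 6.98 to 22.9), so these 3 are not ordered beyond their spread. Dhcr7 and Fdft1 (6.03 each), Insig1 (5.09) and Lss (4.46 CPM per kilobase) formed a second, overlapping group. Idi1 was lowest at 0.997, and its range of 0.841 to 1.30 lay below the lowest library of every other gene of the 8. The authors' RPKM were not used for this order, because the length behind them, recovered from counts and RPKM, was 31234 bases for Dhcr7 and 2748 bases for Sqle, against longest coding transcripts of 2815 and 2758 bases. By RPKM Dhcr7 was lowest, at 0.365 to 0.747, and Idi1 was at 0.626 to 1.45. The stretch over which reads were counted is not given in the sources used here, so the order rests on the length chosen.

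The comparison of the groups asked whether the pathway differs between proliferating cells and neurons. None of the 8 genes passed the test: 0 of 8 had an adjusted p-value under 0.05 in the edgeR quasi-likelihood fit, and 0% of the 12783 tested genes did (438 genes, 3.43%, and 0 of the 8 at an unadjusted p under 0.05). DESeq2 called 12 genes higher and 47 lower in neurons and 0 of the 8. With the replicate number as a block 0.0235% of all genes were called, 3 genes lower in neurons, and again 0 of the 8. The fitted log2 fold changes were all below 0, with a median of -0.58 against 0.024 for all tested genes. They ran from -0.20 (SE 0.56) for Idi1 to -1.01 (SE 0.92) for Lss, and every edgeR adjusted p-value was 0.9998. The 95% intervals were wide and held both directions for each gene, for example -3.17 to 1.15 for Lss, -1.84 to 1.12 for Srebf2 and -1.77 to 0.64 for Hmgcs1. For 6 of the 8 genes the interval reached past 1 on the log2 scale, a 2-fold difference, in both directions. These intervals are from the fit with group as the single term, where the difference between replicates is part of the error. With the replicate block the SE was smaller for most genes, with Lss at -0.59 (SE 0.50), Srebf2 at -0.17 (SE 0.45) and Hmgcs1 at -0.53 (SE 0.42). Idi1 was at -0.17 (SE 0.58) in that blocked fit. A correction for GC content moved Srebf2 from -0.36 to -0.034, Hmgcs1 from -0.57 to -0.98 and Idi1 from -0.20 to -0.68, with 0 of the 8 called. An exact two-sided permutation test of 2 libraries against 2 has 0.333 as its smallest p.

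As group means (± SD, n = 2 libraries), Srebf2 was at 75.8 ± 57.1 CPM in the proliferating and 58.8 ± 19.3 CPM in the neuron libraries. Sqle was at 49.3 ± 38.4 CPM against 35.8 ± 16.5 CPM, and Lss at 27.8 ± 30.2 CPM against 13.8 ± 9.36 CPM. In each of these 3 the spread between proliferating replicates exceeded the difference between the group means.

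The sign of the group difference rested on proliferating replicate 2. Without it the median of the 8 log2 fold changes was 0.73, with 0.75 for Srebf2, 0.85 for Fdft1, 0.71 for Sqle, 1.10 for Lss, 0.75 for Dhcr7, 0.64 for Insig1 and 0.15 for Idi1, while Hmgcs1 stayed at -0.022. The median was -1.23 when proliferating replicate 1 was left out, -0.32 for neuron replicate 1 and -1.10 for neuron replicate 2. The replicate 1 pair alone, which also lacks proliferating replicate 2, had a median log2 difference of 0.15. Leaving out 1 library makes the groups unequal in replicate, so the difference between replicates enters the group contrast of these fits. None of the 8 genes passed the test in any of these fits, where the lone library of a group is assumed to vary like the others.

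**Figure D2:**
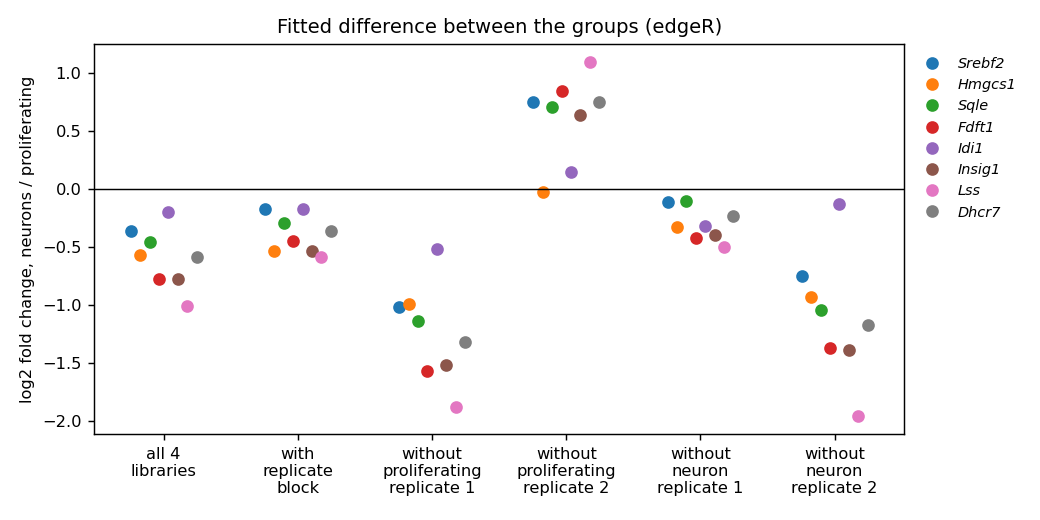
Fitted log2 fold change of neurons over proliferating cells (y axis) for each of the 8 genes (colours) with all 4 libraries, with the replicate block and with each library left out in turn. The values lie below 0 in each fit except that without proliferating replicate 2, where 7 of the 8 lie above 0 and Hmgcs1 is at -0.022.

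The difference of the 8 genes between the groups was not alike in the 2 replicate pairs. In the replicate 1 pair, 7 of 8 were slightly higher in neurons and 1 was lower, with log2 differences of -0.39 to 0.35 and a median of 0.15 (50% of all tested genes were lower). Scaled by library size alone, all 8 were lower, but the median of all genes in this pair was then -0.38 and 7 of the 8 lay above it. In the replicate 2 pair all 8 were lower in neurons, from -0.53 for Idi1 to -1.26 for Lss, with a median of -0.77 (all tested genes 0.07, 46.7% of them lower), and this count of 8 held with each scaling tried. Higher in neurons in the first pair and lower in the second was the pattern of 7 of the 8 genes and of 21.2% of all tested genes. With 1 library per group in a pair, neither pair has a replicate check, and the difference between the pairs was not tested.

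In the replicate 1 pair the ratio of neurons to proliferating cells was 1.10 for Lss (exact 95% interval 0.801 to 1.52), 1.09 for Sqle (0.918 to 1.29) and 1.01 for Insig1 (0.731 to 1.40). These intervals cover counting error only, and they held 1 for 6 of the 8 genes. The exceptions were Srebf2 at 1.28 (1.12 to 1.45) and Hmgcs1 at 0.761 (0.672 to 0.862). By TMM-scaled CPM the regulator and its target Hmgcs1 lay on opposite sides of 1 in that pair. By RPKM both were lower in neuron replicate 1 than in proliferating replicate 1, Srebf2 at 5.688 against 5.808 RPKM. In the replicate 2 pair the ratio was 0.415 for Lss (0.347 to 0.494), 0.462 for Fdft1 (0.388 to 0.549), 0.482 for Insig1 (0.384 to 0.601) and 0.548 for Dhcr7 (0.449 to 0.668). Srebf2 (0.624), Sqle (0.621) and Hmgcs1 (0.628) were close to each other. The interval of Idi1, 0.382 to 1.19, was the 1 that held 1 in that pair.

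**Figure D3:**
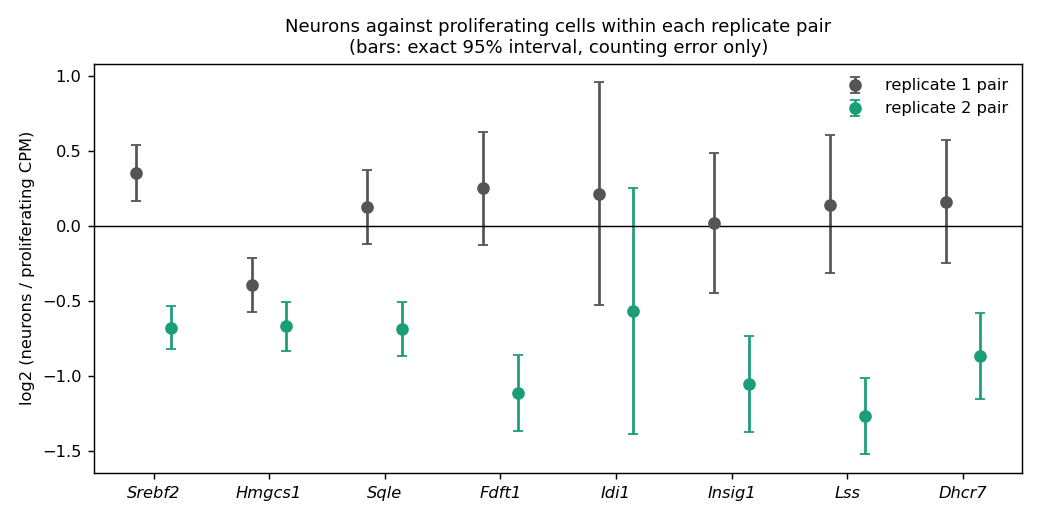
Log2 ratio of neurons to proliferating cells in CPM (y axis) for each gene within the replicate 1 pair (grey) and the replicate 2 pair (green), with exact 95% intervals for counting error. The grey points lie near 0 (-0.39 to 0.35 on the log2 scale) and the green points lie below 0 for all 8 genes, with the interval of Idi1 crossing it.

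By TMM-scaled CPM the wider contrast for these genes was between the replicates. In proliferating cells all 8 were higher in replicate 2 than in replicate 1, with a median log2 difference of 1.88, a 3.68-fold level, against -0.04 for all tested genes, of which 48.9% were higher. In neurons 7 of 8 were higher in replicate 2, as were 50.1% of all tested genes, with a median of 0.97, and Idi1 was at -0.14. Being higher in replicate 2 in both groups held for 7 of the 8 genes and for 31.4% of all tested genes. With a difference of at least 1 on the log2 scale in proliferating cells besides, it held for 6 of the 8 and for 8.31% of all tested genes. In proliferating cells the ratio of replicate 2 to replicate 1 was 7.57 for Lss (exact 95% counting interval 5.92 to 9.78), 5.13 for Fdft1 (4.14 to 6.41), 4.28 for Insig1 (3.29 to 5.62), 4.03 for Dhcr7 (3.17 to 5.14), 3.45 for Sqle and 3.28 for Srebf2 (2.92 to 3.69). It was smaller for Hmgcs1, at 1.88 (1.69 to 2.11), and its interval held 1 for Idi1 (0.896 to 2.64). In neurons the ratio was 2.85 for Lss (2.20 to 3.72), about 2 for Insig1 (2.04), Fdft1 (1.99), Dhcr7 (1.98) and Sqle (1.97), and 1.60 for Srebf2 and 1.55 for Hmgcs1.

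Lss, Fdft1, Insig1, Dhcr7, Sqle and Srebf2 lay between the 97.6th and the 99.7th percentile of all tested genes in this difference in proliferating cells. In neurons these 6 genes lay between percentile 84.0 (Srebf2) and percentile 96.2 (Lss). Hmgcs1 was at percentile 85.5 in proliferating cells and 82.5 in neurons, and Idi1 at percentile 73.8 and 41.9. With library size alone, which moved the median of all genes to -1.18 in proliferating cells and -0.85 in neurons, 6 and 5 of the 8 were higher in replicate 2, while 8 and 7 still lay above the median of all genes. The medians of the 8 between replicates were then 0.69 in proliferating cells and 0.09 in neurons. Those of the replicate 1 and replicate 2 pairs were then -0.23 and -0.84. Measured from the median of all genes, these medians were 1.87, 0.94, 0.15 and -0.84 in the same order.

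A replicate term in the blocked edgeR fit, added after these values were seen, put the 8 genes at a median log2 difference of 1.44 against 0.006 for all tested genes. By that fit Lss was at 2.22 (SE 0.51), Fdft1 at 1.68 (SE 0.50), Insig1 at 1.57 (SE 0.49), Dhcr7 at 1.50 (SE 0.48), Sqle at 1.38 (SE 0.45), Srebf2 at 1.20 (SE 0.45), Hmgcs1 at 0.77 (SE 0.42) and Idi1 at 0.24 (SE 0.58). At an unadjusted p under 0.05, 6 of the 8 were higher in replicate 2, against 3.56% of all tested genes. After adjustment over all genes 0 of the 8 passed, and 0% of all tested genes did, with edgeR adjusted p-values of 0.232 for Lss to 0.885 for Idi1. With a correction for GC content in the same fit the median was 1.32 and 6 of the 8 had an unadjusted p under 0.05 in that direction (4.54% of the genes fitted), while 12 genes (0.103%) and 0 of the 8 were called, Lss having the lowest adjusted p-value of the 8 at 0.0623. That correction moved Hmgcs1 to 1.27 and Srebf2 to 0.75.

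**Figure D4:**
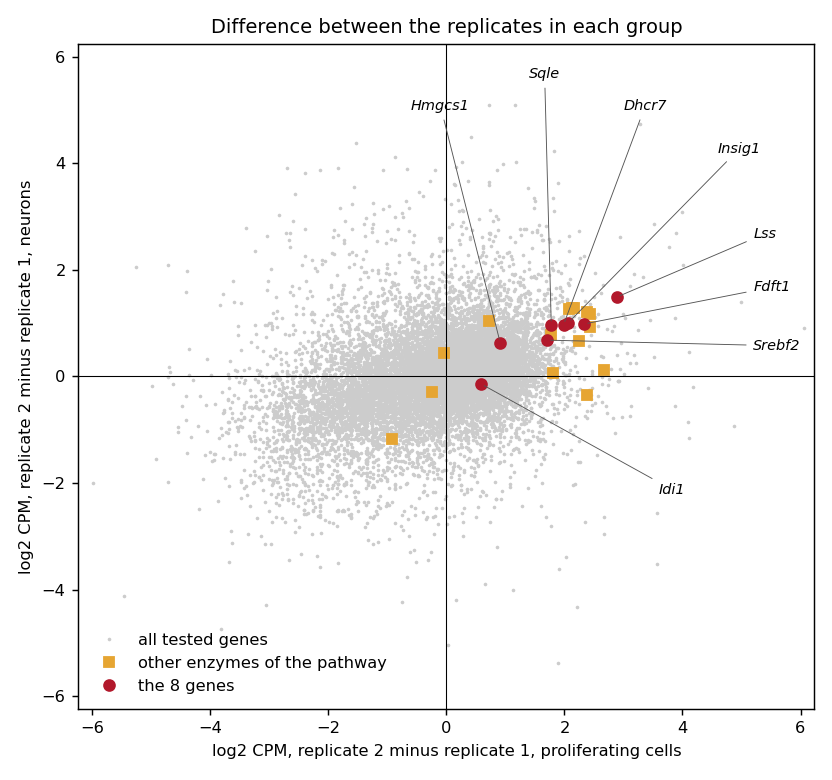
Log2 CPM of replicate 2 minus replicate 1 in proliferating cells (x axis) and in neurons (y axis) for the 12783 tested genes (grey), the 8 genes (red, named) and the other enzymes of the pathway (orange). Of the 8 genes, 7 lie in the upper right, with Lss farthest out at 2.88 and 1.49, and Idi1 lies just below the horizontal line at 0.59 and -0.14.

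Values that moved with the replicates are given beside this. The 18S share was higher in both replicate 2 libraries, and the TMM factor was 1.64 and 1.26 in the replicate 1 libraries and 0.713 and 0.678 in the replicate 2 libraries. Of the 9 neuron markers tested, 5 were higher in replicate 2 in both groups, and Dcx, Map2, Rbfox3 and Snap25 were lower there in proliferating cells. Tubb3 made up most of the difference of their sum in proliferating cells, at 19.1 and 193.6 CPM, against 28.8 and 104.6 CPM in neurons. Of the 6 proliferation markers 5 were lower in replicate 2 in both groups and Mcm2 was higher in both. Mki67 was farthest apart in proliferating cells, with 1133 and 81 counts in proliferating cells and 1408 and 459 in neurons. Of 8 oligodendrocyte and Schwann markers 2 passed the filter, and the summed level of all 8 was 7.07 and 83.4 CPM in proliferating cells and 2.19 and 1.73 CPM in neurons. That difference lay in the lineage factors Olig1 and Olig2, with 167 and 445 counts in proliferating replicate 2, while Mbp had 0 to 2 counts and Mag 0 in every library. The 8 astrocyte and radial glia markers summed to 233.7 and 256.0 CPM in proliferating cells and to 128.2 and 81.4 CPM in neurons. In proliferating replicates 1 and 2, Aqp4 was at 29.25 and 0.271 CPM and Slc1a3 at 92.35 and 48.3 CPM. Aldoc, at 16.5 and 79.2 CPM, and Fabp7, at 22.35 and 49.0 CPM, went the other way. Of the 7 glial markers tested, 0 were higher in replicate 2 in both groups. Mesenchymal and immune markers were near 0, with 0 of 6 and 1 of 4 passing the filter. In bulk RNA fewer cells of a type and less RNA per cell cannot be told apart, and the part of these values in the difference was not tested.

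The other enzymes of the pathway were taken from 2 lists, one of the steps to farnesyl units and geranylgeranyl units and one of the steps from squalene to cholesterol. Together they held 15 enzymes beyond the 8 genes, all of them tested. None passed the group test (0 of 15). In proliferating cells 12 of 15 were higher in replicate 2 (all tested genes 48.9%), and 11 were so in both groups (all tested genes 31.4%). Their median log2 difference was 2.12 in proliferating cells and 0.77 in neurons. In the replicate 1 pair 13 of 15 were higher in neurons (all tested genes 50%). In the replicate 2 pair 11 of 15 were lower (all tested genes 46.7%). In the replicate term 8 of 15 had an unadjusted p under 0.05 and were higher in replicate 2, against 3.56% of all tested genes. After adjustment by edgeR 0 passed.

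Among the early steps Fdps, the farnesyl diphosphate synthase, had 72 and 241 counts in proliferating cells and 164 and 308 in neurons. Its group log2 fold change was 0.24 (SE 0.81), and neuron replicate 1 lay above proliferating replicate 1 by 1.20 on the log2 scale. Mvd, the decarboxylase of the mevalonate arm, had 12 and 44 counts in proliferating cells and 39 and 77 in neurons and the highest group value of that list, 0.71 (SE 0.86). The kinases Mvk (-0.88, SE 0.86) and Pmvk (-0.71, SE 0.77) had the lowest. Ggps1, which leads away from sterols to geranylgeranyl groups, went the other way between replicates, with 105 and 33 counts in proliferating cells and 120 and 43 in neurons.

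Among the late steps Hsd17b7, a reductase of sterol demethylation, had 83 and 217 counts in proliferating cells and 76 and 154 in neurons, with a group log2 fold change of -0.71 (SE 0.77). Ebp, the sterol isomerase, had the highest value at 0.62 (SE 0.65), followed by Lbr, a lamin-binding sterol reductase, at 0.32 (SE 0.44). Lbr and Sc5d, the desaturase, did not share the replicate pattern: Lbr had 319 and 164 counts in proliferating cells and 398 and 266 in neurons, and Sc5d had 155, 91, 123 and 139. All of these edgeR adjusted p-values were 0.9998.

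Besides Srebf2 and Insig1, 8 genes that control SREBP were tested and 0 passed the group test. Their median difference between replicates was 0.31 in proliferating cells and 0.06 in neurons. Scap, the escort, had 224 and 174 counts in proliferating cells and 155 and 145 in neurons, the lowest group value of the list at -0.59 (SE 0.46). Insig2, the INSIG gene that is not a strong SREBP target, had 36 and 16 counts in proliferating cells and 44 and 38 in neurons (0.55, SE 0.54). The protease gene Mbtps2 had 121 and 33 counts in proliferating cells and 174 and 98 in neurons (0.76, SE 0.56). Nfyc, an NF-Y subunit, was at -0.07 (SE 0.53). Srebf1, the sister gene that mainly serves fatty acid synthesis, had 70, 77, 87 and 119 counts in the same order.

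None of the 8 genes is an uptake gene. Of 11 other genes of lipoprotein uptake and sterol traffic, all were tested and 0 passed the group test, 4 higher and 7 lower with a median of -0.32. Lrp1, a large lipoprotein receptor, was lowest at -0.86 (SE 0.53), with 1202 and 416 counts in proliferating cells and 352 and 548 in neurons. Lrp8, a reelin and lipoprotein receptor, was at -0.73 (SE 0.56), and the lipid transfer genes Stard4 and Stard3 were highest at 0.26 (SE 0.44) and 0.21 (SE 0.57). In these genes 3 of 11 were higher in replicate 2 in both groups, near the 31.4% of all tested genes. Their median difference was -0.12 in proliferating cells and 0.05 in neurons.

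Of 8 genes of sterol efflux and its nuclear receptors LXR, 3 were tested and 0 passed the group test. Abca1, the cholesterol exporter that LXR switches on when sterols accumulate, had 1533 and 43 counts in proliferating replicates 1 and 2, and 173 and 568 in neuron replicates 1 and 2. It was thus lowest in the library where the 8 genes were highest, and in neurons it was higher in replicate 2, as 7 of the 8 were. Its group log2 fold change was -0.87 (SE 1.20). Soat1, which esterifies cholesterol for storage, was at 0.09 (SE 0.53) and Nr1h2, an LXR gene, at 0.59 (SE 0.51).

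Fatty acid synthesis genes, mainly targets of SREBP-1, were tested as a list of 11 and 0 passed the group test. In both groups 8 of 11 were higher in replicate 2 (all tested genes 31.4%), with a median of 0.58 in proliferating cells and 0.86 in neurons. Fasn, the fatty acid synthase, had 1781 and 4060 counts in proliferating cells and 1500 and 3270 in neurons, and Acly, which supplies acetyl-CoA to both pathways, had 675, 1295, 825 and 1653. Me1, which makes NADPH from malate, had the lowest group value at -2.13 (SE 0.62, edgeR adjusted p 0.968), with 67 and 33 counts in proliferating cells and 9 and 15 in neurons. Fads2, a desaturase, was at -0.76 (SE 0.47), and Elovl6 and Acaca were highest at 0.65 (SE 0.52) and 0.38 (SE 0.46).

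The genes whose profile over the 4 libraries lay nearest to the mean of the 8, by root mean square difference of centred log2 CPM, were Por (0.0303), Cyp51 (0.0469), Pou6f1 (0.0506), Marcksl1 (0.0657) and Med27 (0.0687). Por encodes the reductase that passes electrons to SQLE and to CYP51, and Cyp51 encodes the lanosterol demethylase. Por had 156 and 322 counts in proliferating cells and 169 and 247 in neurons, and Cyp51 had 287, 596, 324 and 457. The others have no place in sterol synthesis that is commonly described: Pou6f1 is a POU factor gene, Marcksl1 a MARCKS relative and Med27 a Mediator subunit. The same distance was 0.0703 for Sqle, 0.0885 for Dhcr7, 0.120 for Srebf2 and 0.138 for Insig1, and larger for Fdft1 (0.206), Hmgcs1 (0.325), Lss (0.464) and Idi1 (0.553), so that 2910 genes outside the 8 lay nearer to their mean than Idi1 did. These are likenesses over 4 libraries that share depth and scaling, and they are a description.

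The 8 genes lie on 6 chromosomes of the mm10 build in the GENCODE M21 annotation. They are Srebf2 (chr15:82147181-82205379), Hmgcs1 (chr13:119690379-119708260), Idi1 (chr13:8885501-8892451), Fdft1 (chr14:63145150-63179578, minus strand), Sqle (chr15:59315077-59331192), Lss (chr10:76531588-76557138), Dhcr7 (chr7:143823145-143848410) and Insig1 (chr5:28071363-28078662). Whether counting used strand is not given in the sources used here, so reads of overlapping genes on the other strand may not be told apart. Fdft1 overlaps the end of Ctsb, which had 205 and 117 counts in proliferating cells and 87 and 130 in neurons, an order unlike that of Fdft1. Lss overlaps the antisense gene 4930483K19Rik, which had 5, 2, 0 and 0 counts, and Srebf2 hosts the microRNA gene Mir33, which had 1, 0, 0 and 0.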

How the data were processed

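RNA of 4 samples was sequenced after ribosomal RNA depletion with a stranded kit, per the labels' protocols. For each library the authors deposited a table of unnormalized counts by gene and a table of RPKM. The submitters' processing notes name HISAT2, SAMtools, featureCounts, DESeq2 and the build mm10, and the counting settings are not given in the sources used here. The 8 genes, the lists and the naming rule (up to 2 highest and 2 lowest of each list) were chosen with earlier results of these data known. Some genes of the lists are not reported here by name. Groups and replicate numbers come from the titles.

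Counts of 49997 genes were fitted with edgeR 4.0.16 in R 4.3.3 (TMM, filterByExpr with minimum count 10 and minimum total 15, glmQLFit, glmQLFTest, group as the single term), leaving 12783 genes. Calls are Benjamini-Hochberg adjusted p-values under 0.05 over all genes, two-sided. SE is the log2 fold change divided by the square root of F. Pair differences are of log2 CPM (prior count 2), and ratios use CPM with exact 95% intervals (Clopper-Pearson on the split of counts). Reads without molecular identifiers are not independent molecules, so these cover counting error only. The titles call the replicates biological without naming separate cultures, so p-values measure the spread between these libraries. The correlation across genes of the deviations of libraries with the same number was 0.33, and the titles give both replicate 2 libraries the same set, so the replicate block was taken as a pairing. Other tools were DESeq2 1.42.0, limma 3.58.1 and Python 3.11.15 with scipy 1.17.1. GC content came from GENCODE transcripts for 11597 genes (90.7%). The edgeR step was tested on simulated data.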

Additional observations from a re-analysis of the deposited data

How the results depend on the processing

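None of the 8 genes was called under any of 15 alternatives (lowest adjusted p-value 0.129, without proliferating replicate 1), and 112 of 120 values of single genes kept their direction. The others were 7 genes without proliferating replicate 2 and Srebf2 with the GC correction and the replicate block (0.06). Over the fits that left out 1 library, log2 fold changes ranged from -1.02 to 0.75 for Srebf2, -1.14 to 0.71 for Sqle, -1.57 to 0.85 for Fdft1, -0.52 to 0.15 for Idi1, -1.52 to 0.64 for Insig1, -1.96 to 1.10 for Lss and -1.32 to 0.75 for Dhcr7. The median of the 8 ranged from -1.23 to 0.73 there, was -0.40 with the replicate block, and lay between -0.70 and -0.40 in the other settings. The GC correction moved Srebf2 to -0.034, Hmgcs1 to -0.98, Idi1 to -0.68 and Dhcr7 to -0.37.

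Called genes over the whole table, 0 in each direction in the fit reported, were 3 to 29 higher and 11 to 84 lower in neurons over the fits that left out 1 library. They were 12 higher and 47 lower with DESeq2, 41 and 122 without a gene filter, 26 and 91 with the GC correction and replicate block, 0 and 3 with the replicate block, 0 and 2 with library size alone, 0 and 1 with log2(RPKM + 1), and 0 and 2 with log2(RPKM + 0.1). The replicate block changed no call among the 8.

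Library size alone, in which the 18S row is part of the total, moved list medians of the group log2 fold change to -0.09 for SREBP control, -0.40 for efflux, -0.73 for uptake and traffic and -0.57 for fatty acid synthesis, while that of all genes moved from 0.02 to -0.27. It moved the median of the 8 in the replicate 1 pair to -0.23, and between replicates to 0.69 in proliferating cells and 0.09 in neurons. The cause of the other differences was not tested. The GC settings and the replicate term were added after seeing the data. Depth limits Idi1 most, at 26 to 35 counts a library.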
